A study of Mus musculus with 6 samples.

Results

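The AP-1 transcription factor genes were followed over 6 arrays of a mouse kidney cell line. The members were every gene-detecting probe that the array files assign to Fos, Fosb, Fosl1, Fosl2, Jun, Junb, Jund, Maff or Mafk. That gave 9 genes of the 34797 gene names on the arrays, read by 10 probes in 19 spots per array. Fosl2 had 2 probes and Fos had 10 spots of 1 probe, and the other 7 genes had 1 spot each.

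The study exposed mProx24 cells, a C57B6 mouse line of the kidney's proximal tubule, to the stresses of a diabetic kidney. Its conditions were triple stimuli with rapamycin (1% oxygen, high glucose and palmitate, plus rapamycin), triple stimuli (the same without rapamycin), hypoxia (1% oxygen), high FFAs (at 20% oxygen; FFAs are free fatty acids, here palmitate), high glucose (at 20% oxygen) and control (20% oxygen). Per the labels' protocols, 12 h at low oxygen came before 9 h of palmitate at 150 µM on 0.15% bovine serum albumin, and cells received rapamycin (0.4 µg/ml) in the 12 h ahead of palmitate. Rapamycin inhibits the growth kinase complex mTORC1; the sources used here name neither its vehicle nor the glucose concentrations. Each condition was 1 array, so no replicate error exists, no test was made, and precision is limited by that number of arrays.

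AP-1 is a dimer of basic leucine zipper proteins that binds DNA at TGACTCA and related sequences. Jun proteins pair with each other or with Fos proteins, whereas Fos proteins need a Jun partner. Fos, Fosb, Jun and Junb are immediate early genes, transcribed within minutes of a growth or stress signal from factors already in the cell, and their RNAs are short-lived. Maff and Mafk are small Maf proteins with the same kind of zipper but no activation domain; they pair with NRF2 and its relatives at antioxidant response elements. In kidney tubules AP-1 is known for its induction after ischaemic and toxic injury.

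The scanner file labelled high glucose holds the values of the value-table column labelled high FFAs, and the other way round. These arrays are called array A (scanner label high glucose) and array B (scanner label high FFAs), and nothing is said here of which stimulus either received. The 3 arrays at 1% oxygen lay in row 2 of the slide and the 3 at 20% oxygen in row 1, so oxygen and slide row cannot be told apart. Of 59305 spots, between 40.3% and 43.8% passed the scanner software's test of being well above background, and 0 were saturated. Probes with several spots had a median SD over their spots of 0.0606 to 0.071 log2 units. Of 15 proximal tubule markers, 6 (Aqp1, Cubn, Ggt1, Lrp2, Mme and Slc4a4) were well above background on all 6 arrays and 8, among them Hnf4a, Slc34a1, Slc5a2 and Slc22a6, on none. Their summed linear level was 9.79 with triple stimuli and rapamycin, 12.7 with triple stimuli, 24.8 in hypoxia, 13.4 on array A, 25.4 on array B and 22.9 in control. That sum was lowest on the 3 arrays where Jun was highest, but its genes differed in direction: in triple stimuli against control Aqp1 stood at -0.93, Lrp2 at -1.10 and Mme at -0.94, whereas Slc4a4 stood at 1.77, Ggt1 at 0.76 and Cubn at 0.03, with a list median of 0.03.

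Of 10 general epithelial markers, 4 (Krt8, Krt18, Krt19 and Tjp1) were well above background on all arrays and 4 (Cdh1, Epcam, Krt7 and Ocln) on none. The summed level of the list was 256 with triple stimuli and rapamycin, 294 with triple stimuli, 228 in hypoxia, 170 on array A, 205 on array B and 193 in control. In triple stimuli against control Krt19 stood at 2.75, Krt18 at 0.30, Krt8 at 0.07 and Tjp1 at -0.01. Cldn1 stood at -0.11 and Cldn2 at -1.49 or lower there, and the list median was 0.03. On all arrays were also 0 of 8 fibroblast markers (summed level 0.316 to 0.444), 1 of 7 of other tubule segments (Aqp2; 0.462 to 0.675), 1 of 6 of endothelium (Kdr; 7.51 to 10.1) and 4 of 8 of leukocytes (Cd3e, Cd68, Csf1r and Itgam, with Ptprc and Lyz2 on none; 21.3 to 34.4). Cd68 was highest on the same 3 arrays as Jun, at 1.39 in triple stimuli against control and 1.92 on array A against control. In triple stimuli against control Csf1r stood at -0.09, Itgam at 0.23 and Cd3e at 0.04, with a list median of 0.14. On array A against control they stood at -0.50, 0.16 and 0.03, with a list median of 0.09. The part of these markers in the results was not tested.

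Promoter sequences are shown for the 5 genes that were at least 2-fold higher in triple stimuli than in control and have a window in RefSeq (GRCm38.p6). Windows were matched for 8 members, all except Fosl1. Each is the 250 bases before the transcription start, 5′ to 3′ on the gene's strand, and for Maff the second of its 3 windows is given. Capitals mark TGACG, the core of the cAMP response element, or TGACNTCA, which covers that element and the Jun-type site, on either strand. A TGACGTCA is a match to both, and of the Maff windows only the printed one holds it. The first Maff window holds neither motif, and the third holds both as separate matches.
Fos (chr12:85473640-85473889, plus strand): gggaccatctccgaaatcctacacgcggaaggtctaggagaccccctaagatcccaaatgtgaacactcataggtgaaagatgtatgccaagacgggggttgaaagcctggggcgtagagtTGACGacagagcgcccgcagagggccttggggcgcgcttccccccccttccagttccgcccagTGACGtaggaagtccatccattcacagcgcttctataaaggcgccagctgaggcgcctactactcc
Fosb (chr7:19310046-19310295, minus strand): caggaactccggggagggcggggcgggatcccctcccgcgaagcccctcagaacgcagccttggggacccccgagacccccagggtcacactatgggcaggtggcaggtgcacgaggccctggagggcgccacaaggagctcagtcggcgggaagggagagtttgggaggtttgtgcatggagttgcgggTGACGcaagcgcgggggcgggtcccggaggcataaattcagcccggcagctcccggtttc
Jun (chr4:95052223-95052472, minus strand): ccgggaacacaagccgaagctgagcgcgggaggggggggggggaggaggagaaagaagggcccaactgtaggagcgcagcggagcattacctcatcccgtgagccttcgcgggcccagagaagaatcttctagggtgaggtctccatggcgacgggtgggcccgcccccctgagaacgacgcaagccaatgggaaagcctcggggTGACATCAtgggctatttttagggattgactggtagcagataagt
Junb (chr8:84978749-84978998, minus strand): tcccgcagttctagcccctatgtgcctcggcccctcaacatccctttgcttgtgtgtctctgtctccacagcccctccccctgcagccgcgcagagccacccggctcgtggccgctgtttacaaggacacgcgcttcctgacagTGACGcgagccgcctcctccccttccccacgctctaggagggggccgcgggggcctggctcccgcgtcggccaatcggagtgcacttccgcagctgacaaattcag
Maff (chr15:79347270-79347519, plus strand): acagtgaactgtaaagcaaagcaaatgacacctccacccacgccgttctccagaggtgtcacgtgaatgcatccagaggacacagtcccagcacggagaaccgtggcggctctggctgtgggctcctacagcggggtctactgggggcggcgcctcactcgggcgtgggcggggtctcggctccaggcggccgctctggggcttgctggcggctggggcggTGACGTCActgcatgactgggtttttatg

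At least 1 of these motifs stood in the windows of 6 of the 8 members, against 25.5% of 27025 genes. The 6 were the 5 printed genes and Mafk, and Fosl2 and Jund held neither. TGACATCA in Jun began 45 bases before the start, TGACG in Junb 106 bases, TGACG in Fos 66 and 129 bases, TGACG in Fosb 60 bases and TGACGTCA in Maff 29 bases. TGACG alone occurred in 17.8% of all 32851 windows and TGACNTCA in 7.49%. The classical AP-1 site TGACTCA, in 4.46% of all windows, and the CArG box of serum response factor, in 1.47%, were in none of the members' windows. Sequence outside the windows, such as that further upstream, was not searched. Absence from a window therefore does not show that a gene lacks the site. The hypoxia response core ACGTG was in the windows of 3 of the 8 members, Jund, Maff and Mafk, against 18.5% of genes. A match describes these letters and not binding.

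Levels are log2 of the processed signal relative to the 75th percentile of the array, so 0 is the level of that percentile and 1 unit is a 2-fold difference. They are compared between arrays for 1 probe, never between probes. The error beside a difference combines the scanner software's own spot errors on both arrays. For Fos it is the mean error of a single spot, although the level averages several spots, so it is too wide for that mean. It leaves out the spread between cultures.

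**Figure D1:**
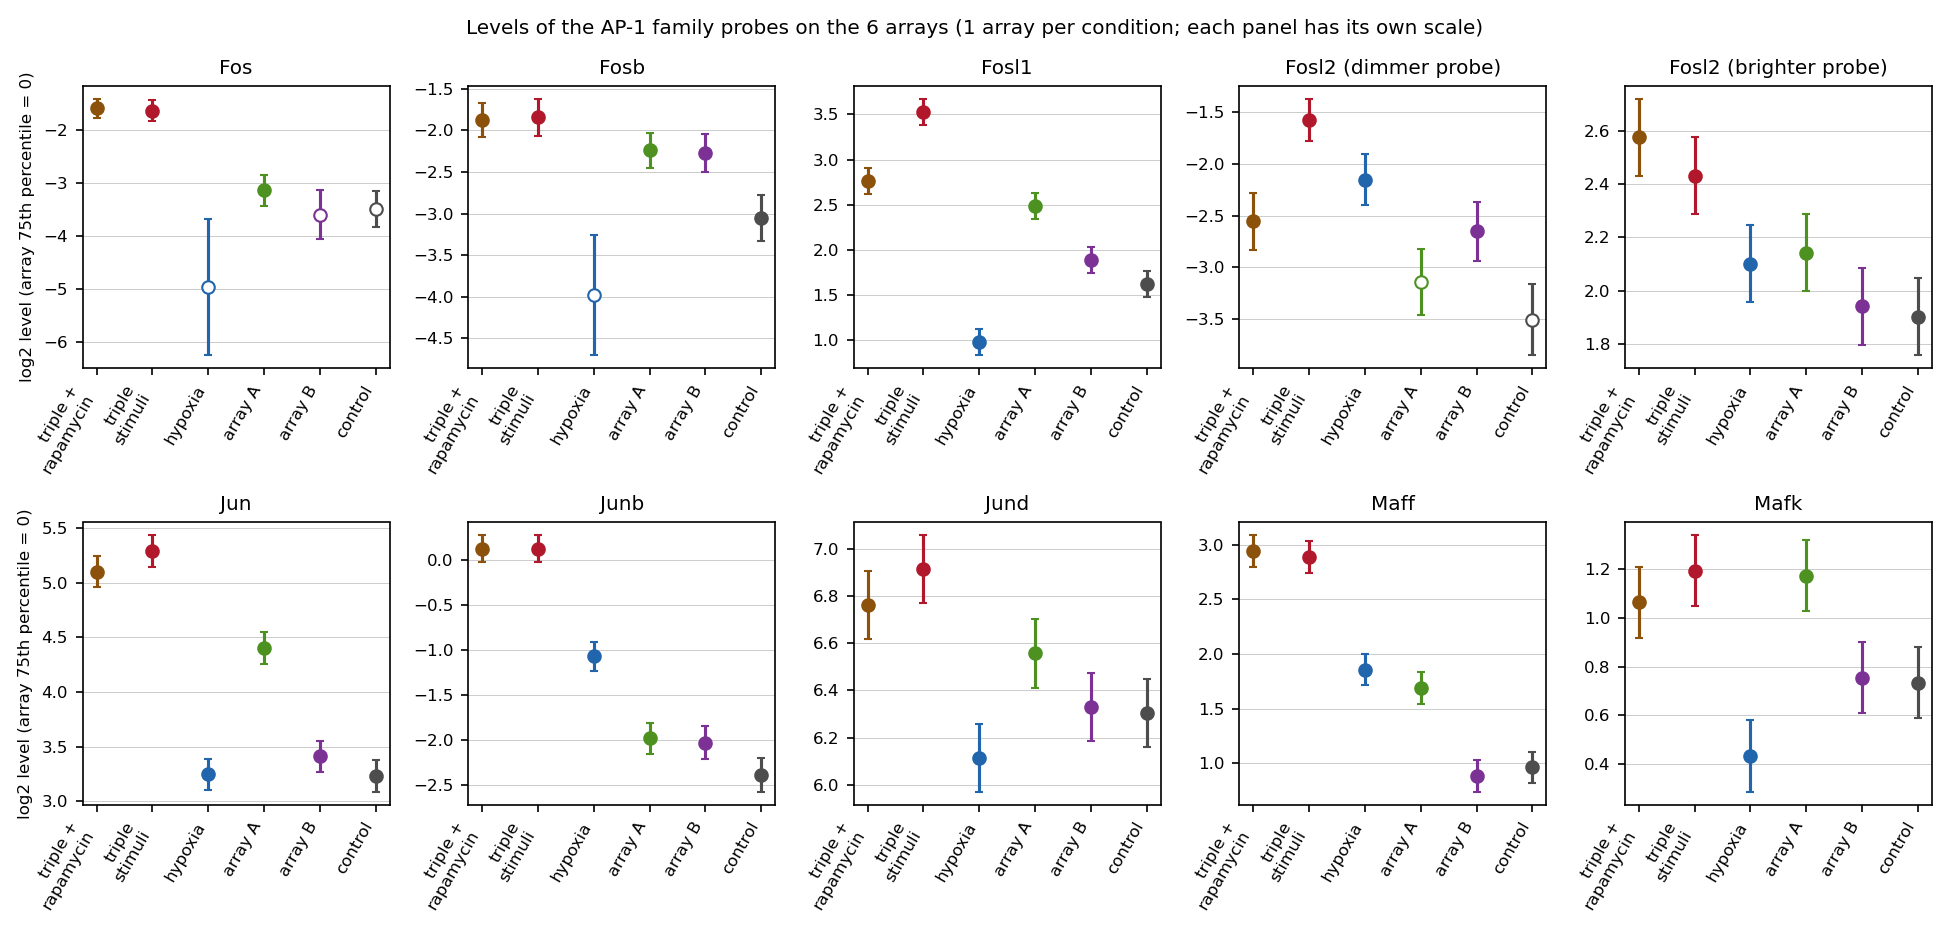
The log2 level of each of the 10 probes (vertical axis, relative to the 75th percentile of the array) on the 6 arrays, each panel on its own scale; bars are the scanner software's error for a spot, open circles are arrays where the probe was not well above background. For 8 of the 10 probes, all but Mafk and the dim Fosl2 probe, both triple stimuli arrays were higher than any other array, and for Junb the pair stood at 0.12 each.

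Fos, the founding member that activates strongly as a dimer with Jun, was dim on every array. Its linear signal averaged 112 with triple stimuli and rapamycin, 98.6 with triple stimuli, 10.1 in hypoxia, 39.7 on array A, 29.5 on array B and 32.6 in control. Well above background were 9 of 9 unflagged spots with triple stimuli and rapamycin, 10 of 10 with triple stimuli, 0 of 9 in hypoxia, 8 of 10 on array A, 1 of 10 on array B and 5 of 10 in control. The triple stimuli arrays stood apart from the other 4: their lowest unflagged spots read 103 with rapamycin and 87.0 without, and the highest unflagged spot elsewhere read 48.7, on array A. By the scanner error of 1 spot, array A was within error of control, the next lower level, and control within error of array B. Hypoxia, with the largest error, was within that error of array B. Such an error does not settle their order, since these levels average 9 or 10 spots. SDs over spots were 0.44 in hypoxia, 0.21 on array A, 0.47 on array B and 0.24 in control. The log2 levels were -4.96, -3.15, -3.61 and -3.50. In RNA of a whole culture, fewer expressing cells and less RNA per cell cannot be told apart.

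The scanner software marked 2 of the 60 Fos spots as outliers, both at the same place on the slide, in spot row 22. That spot read 211 with triple stimuli and rapamycin, where the other 9 ran from 103 to 130, and 60.2 in hypoxia, where the other 9 ran from 7.73 to 20.8. On the other 4 arrays it carried no mark and read 115 with triple stimuli, 34.3 on array A, 42.7 on array B and 24.2 in control. With the marked spots kept, the log2 level moved to -1.51 with triple stimuli and rapamycin, against -1.60 without them, and to -4.70 in hypoxia, against -4.96. Fos was not set against control in hypoxia or on array B, since neither side was well above background.

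**Figure D2:**
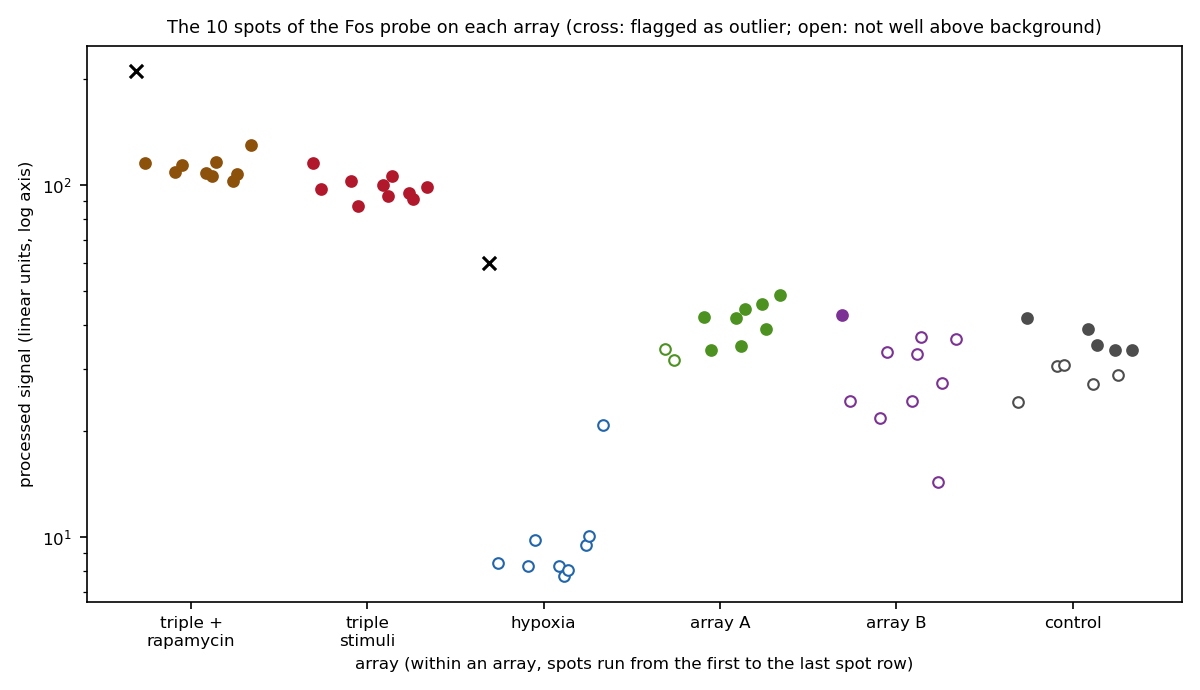
Processed signal (log axis, linear units) of each of the 10 Fos spots on each array; crosses are the 2 marked outliers, filled circles are well above background, open circles are not. The spots of both triple stimuli arrays lie above all unmarked spots of the other 4 arrays, and hypoxia lies lowest, with unmarked spots from 7.73 to 20.8.

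Fosb, which has an activation domain like Fos, had a log2 level of -1.88 with triple stimuli and rapamycin, -1.85 with triple stimuli, -3.98 in hypoxia, -2.24 on array A, -2.27 on array B and -3.05 in control. It was not well above background in hypoxia. Its levels formed 4 steps separated by more than scanner error, with both triple stimuli arrays highest, arrays A and B next, then control, then hypoxia.

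Fosl1 (FRA1) lacks that activation domain and is known from invasive and wounded epithelium. Its log2 level was 2.76 with triple stimuli and rapamycin, 3.53 with triple stimuli, 0.98 in hypoxia, 2.48 on array A, 1.88 on array B and 1.62 in control. It alone of the 9 genes had all 5 gaps between neighbours in the order of levels above scanner error, the smallest being 0.26 between array B and control. Hypoxia was the lowest array and triple stimuli, which includes low oxygen, the highest.

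Fosl2 (FRA2), its close relative, was read by a bright and a dim probe on chromosome 5 of mm9, the bright one at 32460076 to 32460135 and the dim one at 32455088 to 32455147. The bright probe had log2 levels of 2.57 with triple stimuli and rapamycin, 2.43 with triple stimuli, 2.10 in hypoxia, 2.14 on array A, 1.94 on array B and 1.90 in control. The dim probe had levels of -2.56 with triple stimuli and rapamycin, -1.57 with triple stimuli, -2.15 in hypoxia, -3.14 on array A, -2.65 on array B and -3.51 in control, and was not well above background on array A or in control. The probes differed in pattern: across the 6 arrays the bright probe spanned 0.67 log2 units and the dim one 1.93, and the triple stimuli array without rapamycin was highest for the dim probe alone. The bright probe stands for the gene in all counts.

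Jun, the main activating partner of Fos, had a log2 level of 5.10 with triple stimuli and rapamycin, 5.29 with triple stimuli, 3.25 in hypoxia, 4.40 on array A, 3.41 on array B and 3.23 in control. Both triple stimuli arrays were above array A, and array A above the other 3 arrays, by more than scanner error, whereas array B, hypoxia and control were within it. Its probe lies on chromosome 4 of mm9 at 94716928 to 94716987, and no mm9 exon or untranslated region was annotated here for any probe.

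Junb, an immediate early Jun protein that activates less than Jun and can oppose it, followed another order. Its log2 level was 0.12 with triple stimuli and rapamycin, 0.12 with triple stimuli, -1.07 in hypoxia, -1.98 on array A, -2.03 on array B and -2.39 in control. Here hypoxia was second to the triple stimuli arrays and above arrays A and B by 0.91 log2 units or more, outside the scanner error of 0.24.

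Jund, expressed broadly without stimulation, varied least among the Jun genes. Its log2 level was 6.76 with triple stimuli and rapamycin, 6.91 with triple stimuli, 6.11 in hypoxia, 6.56 on array A, 6.33 on array B and 6.31 in control. Over the 6 arrays it spanned 0.80 log2 units, and control was within scanner error of both array B and hypoxia.

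Maff had a log2 level of 2.94 with triple stimuli and rapamycin, 2.89 with triple stimuli, 1.86 in hypoxia, 1.69 on array A, 0.88 on array B and 0.96 in control. Hypoxia and array A were level within error in the middle, and array B and control level within error at the bottom. Its relative Mafk had levels of 1.06 with triple stimuli and rapamycin, 1.19 with triple stimuli, 0.43 in hypoxia, 1.17 on array A, 0.76 on array B and 0.73 in control. Mafk spanned 0.76 log2 units, with the triple stimuli arrays and array A within error of each other, array B and control below them, and hypoxia lowest.

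Triple stimuli against control asks how the combined stresses bear on the family. In all, 6 members were at least 2-fold higher and 0 lower: Junb 5.71-fold, Jun 4.17-fold, Maff 3.80-fold, Fosl1 3.75-fold, Fos 3.61-fold and Fosb 2.31-fold. Among all 17804 genes compared, 5.09% were at least 2-fold higher and 1.74% lower. Junb stood at a log2 difference of 2.51 with a scanner error of 0.24, and 0.944% of all genes had a difference as large. Jun stood at 2.06 ± 0.20, Maff at 1.93 ± 0.20, Fosl1 at 1.91 ± 0.20, Fos at 1.85 ± 0.39 and Fosb at 1.21 ± 0.36, where ± is the scanner error. Fos was not well above background in control, but its level of -3.50 there lay above the faintest well-above-background level, -3.65. Its difference is therefore the measured one and not a bound. Under 2-fold were Jund at 0.61, Fosl2 at 0.53 and Mafk at 0.46, each above its scanner error of about 0.20, 0.20 and 0.21. The dim Fosl2 probe, also not well above background in control, stood at 1.93, likewise as measured. The median of the 9 members was 1.85, against -0.03 over all genes compared. Background correction by normexp brought Fos to 0.89 and Fosb to 0.54, and the mean of both Fosl2 probes was 1.23.

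Triple stimuli with rapamycin against control gave the same 6 genes as at least 2-fold higher and 0 lower, against 4.58% of 17983 genes higher and 1.8% lower. The log2 differences were 2.51 for Junb, 1.98 for Maff, 1.90 for Fos, 1.87 for Jun, 1.18 for Fosb and 1.14 for Fosl1. Fosl2 stood at 0.67, Jund at 0.46 and Mafk at 0.33. Under normexp, Fos was at 0.88 and Fosb at 0.52.

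Triple stimuli with rapamycin against triple stimuli asks what inhibition of mTORC1 does within the combined stresses. None of the 9 members differed by 2-fold, against 1.93% of 17261 genes higher and 2.14% lower, so 0 calls is near the background. Among the probes that stand for a gene, Fosl1 differed most, by -0.77 with a scanner error of 0.20, lower with rapamycin. Junb at 0.00, Fosb at -0.03, Fos at 0.05, Maff at 0.06, Mafk at -0.13, Fosl2 at 0.14, Jund at -0.15 and Jun at -0.19 were all within their scanner errors. The dim Fosl2 probe, at -0.98 ± 0.34, went the other way from the bright one, and the mean of both probes was -0.42. The control array takes part in neither side of this comparison, while the triple stimuli array serves in both this and the comparison with control.

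**Figure D3:**
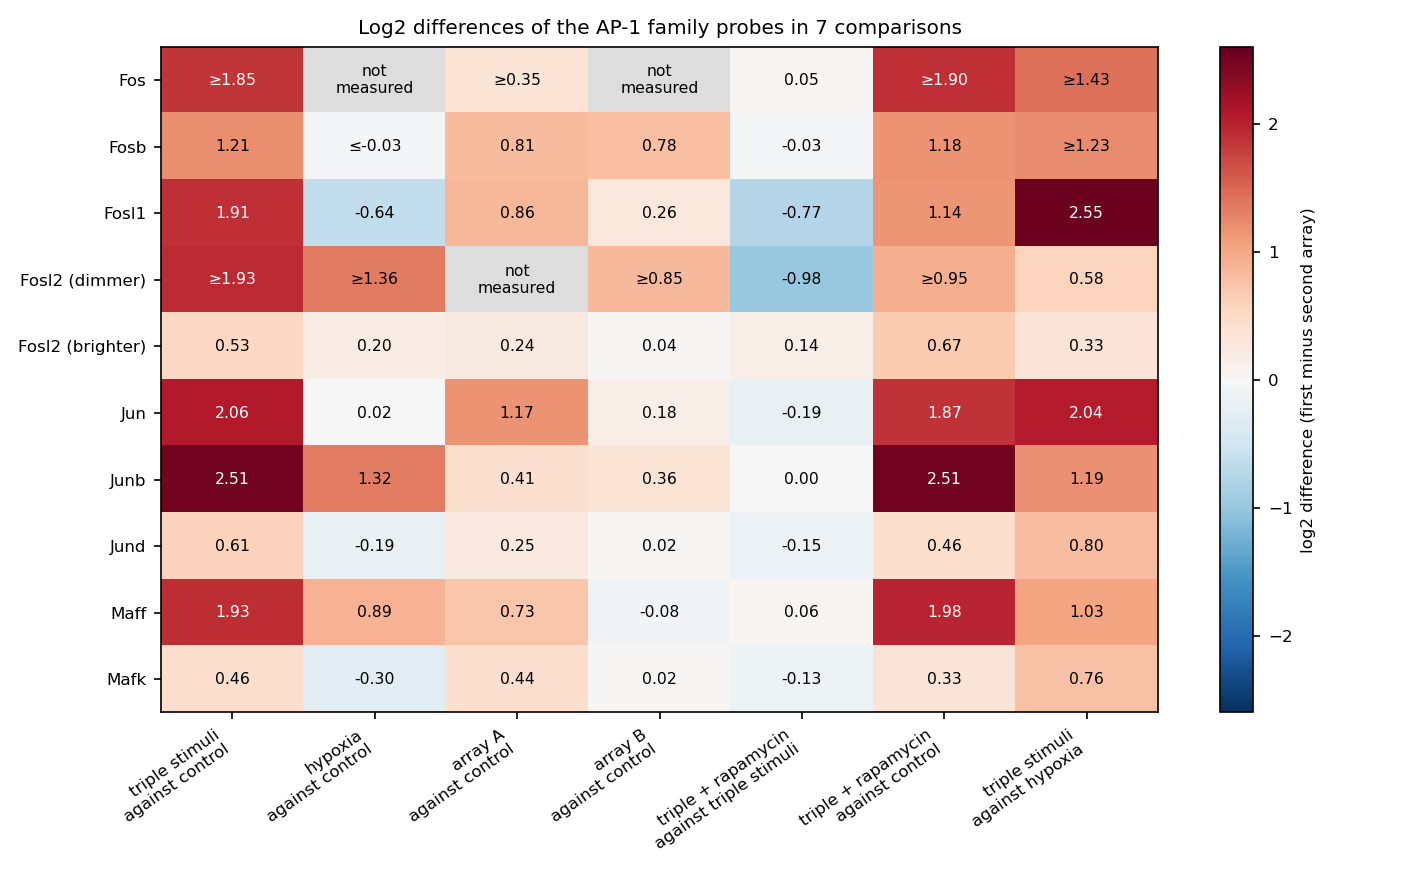
Log2 difference (first array minus second) of each of the 10 probes in the 7 comparisons, as colour and number. A ≥ or ≤ marks a difference with a side not well above background, and grey cells had neither side well above it. Where such a side lay above the faintest well-above-background level of its array, the number is the measured difference and not a bound. This holds for Fos in triple stimuli against control. Junb in triple stimuli, with and without rapamycin, and Fosl1 in triple stimuli against hypoxia are the darkest cells, at 2.51, 2.51 and 2.55.

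Hypoxia against control asks what low oxygen does by itself. Junb was 2.50-fold higher, a log2 difference of 1.32 with a scanner error of 0.25, and was the only 1 of the 8 members compared to reach 2-fold by its counted probe, against 4.41% of 17806 genes higher and 0.461% lower. Maff was next at 0.89 ± 0.20, and 5.09% of all genes had a difference as large. Fosl1 stood at -0.64 ± 0.21 and Mafk at -0.30 ± 0.21, both lower in hypoxia by more than scanner error. The Fosl2 probes disagreed, the bright one at 0.20 ± 0.20 and the dim one, which does not enter the count, at 1.36 ± 0.42, or 2.56-fold. Jun at 0.02 and Jund at -0.19 were within their errors, and Fosb was lower by a bound of 0.03 or more, with a measured difference of -0.93 ± 0.78. The median of the members was -0.01, against -0.03 over all genes. Under normexp Junb was at 0.89, and with no filter on dim probes Fos stood at -1.47.

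Array A against control had all 9 members above 0, with a median of 0.44 against -0.01 over all genes, of which 48.5% were above 0. Jun was the only member at least 2-fold higher, 2.26-fold or 1.17 ± 0.20, against 1.57% of 17825 genes higher and 0.903% lower. Fosl1 at 0.86 ± 0.20, Fosb at 0.81 ± 0.35 and Maff at 0.73 ± 0.20 followed, and then Mafk at 0.44, Junb at 0.41, Fos at 0.35, Jund at 0.25 and Fosl2 at 0.24. The Fos value lay within 0.45, the scanner error for single spots. It compares means over 10 spots, however, with SDs over spots of 0.21 on array A and 0.24 in control.

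Array B against control had none of 8 members at 2-fold, against 0.308% of 17512 genes higher and 0.286% lower. Fosb stood at 0.78 ± 0.36, and 0.72% of all genes had a difference as large. The dim Fosl2 probe stood at 0.85 ± 0.45. Junb at 0.36 ± 0.26 and Fosl1 at 0.26 ± 0.20 were also above their errors. Jun at 0.18, Fosl2 at 0.04, Jund at 0.02, Mafk at 0.02 and Maff at -0.08 were not.

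Triple stimuli against hypoxia, both at 1% oxygen and in the same slide row, asks what high glucose and palmitate add at low oxygen. Again 6 members were at least 2-fold higher and 0 lower, against 3.51% of 17080 genes higher and 3.03% lower. Fosl1 led with 2.55 ± 0.21, or 5.86-fold, and 0.386% of all genes had a difference as large. Jun stood at 2.04 ± 0.20, Fos at 1.43 or more (measured 3.32 ± 1.30), Fosb at 1.23 or more, Junb at 1.19 ± 0.22 and Maff at 1.03 ± 0.20. Jund at 0.80, Mafk at 0.76 and Fosl2 at 0.33 were under 2-fold and above scanner error. Normexp ended 4 of the 6 calls, with Maff at 0.98, Junb at 0.97, Fos at 0.63 and Fosb at 0.40, and quantile normalisation ended that of Maff, at 0.99.

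The difference in triple stimuli was further compared with the 3 single differences added up (array A, array B and hypoxia), a sum that does not depend on which of arrays A and B is which. Of the 7 members measured on all 5 arrays, only Fosl1 exceeded the sum by 1 log2 unit or more, with 1.91 in triple stimuli against a sum of 0.49, an excess of 1.42. Over all 15162 genes so measured, 0.943% lay at least 1 above the sum and 1.4% at least 1 below. The excess was 0.69 for Jun, 0.52 for Jund, 0.42 for Junb, 0.38 for Maff, 0.30 for Mafk and 0.05 for Fosl2. The control array enters the sum 3 times, so an error in it weighs on all of these values together.

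Spot position moved with the number of 2-fold differences over the slide. In triple stimuli against control, 11.1% of genes with a probe in the first 64 spot rows were at least 2-fold higher, against at most 5.11% in the other 5 bands of rows (genes read from 1 spot). Of the members only 2 of the 10 Fos spots lie in that first band. Without its spots there, Fos stood at 1.82 in triple stimuli against control. Jun, Junb and Maff lie in the third band, where 5.11% of genes were higher, Fosb in the second, with 4.79%, the bright Fosl2 probe in the fourth, with 3.12%, and Fosl1, Jund, Mafk and the dim Fosl2 probe in the sixth, with 3.08%.

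Other leucine zipper genes, listed as possible partners of AP-1 proteins, were counted next, from lists written with earlier results of these data known. Pairing of these genes was not tested. In triple stimuli against control, 6 of 13 of these zipper genes were at least 2-fold higher and 0 lower, with a median of 0.74. Of all genes, 5.09% stood at least 2-fold above control and 1.74% at least 2-fold below it, around an all-gene median of -0.03. The largest differences were in Atf3, a stress repressor that pairs with Jun, at 3.66, Ddit3 (CHOP), induced by endoplasmic reticulum stress, at 2.95, Nfil3 at 2.52 and Cebpb, a factor of acute-phase responses, at 1.33. These 4 showed differences on array A against control of 2.99 for Atf3, 2.83 for Ddit3, 1.55 for Nfil3 and 1.32 for Cebpb. On array A, 5 of 13 of the zipper genes were at least 2-fold higher, against 1.57% of all genes. In hypoxia there were 2 of 13, Ddit3 at 2.02 and Nfil3 at 1.10, against 4.41% of all genes, and on array B 0 of 13, against 0.308%.

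Among the partners of the small Maf proteins, 0 of 7 other Maf, CNC and Bach genes were at least 2-fold different in triple stimuli against control, a count near the 5.09% and 1.74% of all genes, with a median of 0.39 against -0.03. Nfe2l1 (NRF1) stood at 0.70, Bach2, a repressor that binds with small Mafs, at 0.41, Mafg, the remaining small Maf gene, at 0.40 and Nfe2l2 (NRF2 itself) at 0.39.

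Of the kinases and serum response factors upstream of Fos and Jun, 0 of 19 were at least 2-fold different in triple stimuli against control, near the 5.09% higher and 1.74% lower of all genes, with a median of 0.13. Map3k1, a kinase above JNK, stood at 0.85 there and at 1.24 in hypoxia against control, the only 1 of 19 at 2-fold in hypoxia, a count near the 4.41% of all genes. Mapk9 (JNK2) stood at -0.67, Map2k1 (MEK1) at 0.65 and Map2k4, which phosphorylates JNK, at -0.53. Among the phosphatases and decay factors that limit AP-1, 7 of 12 were at least 2-fold higher in triple stimuli, against 5.09% of all genes, and 0 lower, with a median of 1.29. These include phosphatases of MAP kinases, with Dusp4 at 1.83, Dusp8 at 1.74, Dusp6 at 1.72 and Dusp5 at 1.55. In hypoxia 1 of 12 reached 2-fold (Dusp6 at 1.18), near the 4.41% of all genes, and on array A 1 of 12 (Dusp4 at 1.52), against 1.57%.

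Of the known AP-1 target genes, 9 of 23 were at least 2-fold higher in triple stimuli than in control, against 5.09% of all genes, and 0 lower, with a median of 0.83. Areg, a ligand of the EGF receptor, stood at 3.21, Ptgs2, the inducible cyclooxygenase, at 2.19, Hmga2, a chromatin protein, at 2.04 and Ier3, an early survival gene, at 1.92. The collagenase Mmp13 and its relatives Mmp1a, Mmp3, Mmp9 and Mmp10, textbook AP-1 targets, were well above background on none of the 6 arrays. On array A 3 of 22 targets were at least 2-fold higher (Hmga2 at 1.95, Areg at 1.69 and Ptgs2 at 1.67), against 1.57% of all genes, and in hypoxia 2 of 22, among them Ier3 at 1.14, against 4.41%. With rapamycin against without, 1 of 23 was at least 2-fold lower, Areg at -1.42, near the 2.14% of all genes, and 0 were higher, with a median of -0.34 against -0.03 over all genes.

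Of the targets of small Maf and NRF2 pairs, 2 of 22 were at least 2-fold higher in triple stimuli than in control, near the 5.09% of all genes: Hmox1 (heme oxygenase) at 2.43 and Slc7a11 (the cystine carrier) at 2.21, with a list median of -0.10 against -0.03 over all genes. Gclc, which makes glutathione's precursor, stood at -0.81 and the glutathione transferase Gsta4 at -0.69. With rapamycin against without, 0 of 22 were above 0, against 44.7% of all genes, and the median was -0.30 against -0.03. At least 2-fold lower was 1 of 22, Gsta2 at -1.08, near the 2.14% of all genes.

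**Figure D4:**
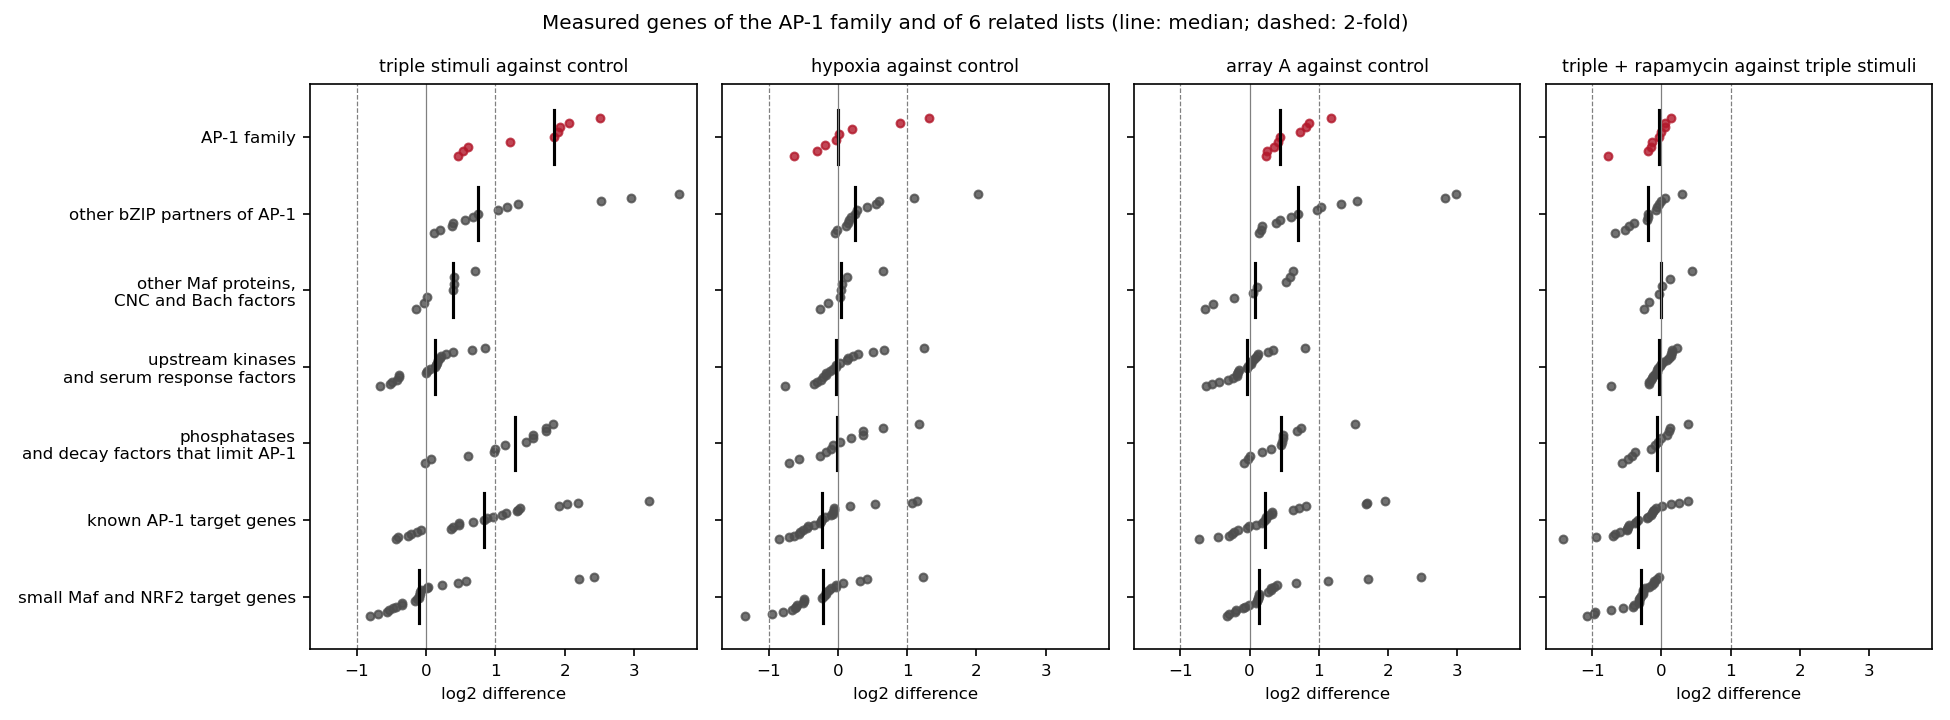
Log2 differences of the measured genes of the AP-1 family (red) and of 6 related lists (grey) in 4 comparisons; the black line is the list median and dashed lines mark 2-fold. In triple stimuli against control the family median was 1.85, the phosphatases followed at 1.29, and the small Maf and NRF2 targets stood at -0.10.

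Genes with a pattern like that of a member were sought by Pearson's r over the 6 arrays among 1085 named genes that were well above background throughout and spanned at least 1 log2 unit. These r values describe 6 arrays with shared scaling, 2 of which are triple stimuli arrays, and many genes come close to any such pattern: 119 had r above 0.9 with Jun, 76 with Fosl1, 71 with Maff and 43 with Junb. Closest to Jun were Tmem74 (r = 0.998), Abtb2 (0.997) and Nr4a1 (0.996), an orphan nuclear receptor that is itself an immediate early gene. Among the 3 closest to Fosl1 were Stk40 (0.992) and Traf1 (0.986), an adaptor of TNF receptors. Closest to Junb were Zfp36l1 (0.985), which speeds decay of AU-rich RNAs, Cited2 (0.981), an inhibitor of the hypoxia factor HIF, and Enpp3 (0.977). Closest to Maff were Pim3 (0.991), a survival kinase, Ypel3 (0.986) and Dusp1 (0.985), a phosphatase of JNK and p38.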

How the data were processed

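RNA of mProx24 cells was hybridised in 1 colour (Cy3), 1 array for each of 6 conditions. The authors read the arrays with Agilent Feature Extraction 10.7.3.1, per the submitters' processing notes. Per the file headers, the authors' software subtracted background and detrended each array to give a linear intensity for each spot, unscaled across arrays. The deposited value table holds a ratio, that signal over the 75th percentile of its array; its scale and division were read from the values. Its column medians were 0.0561 for triple stimuli with rapamycin, 0.0544 for triple stimuli, 0.0562 for hypoxia, 0.0535 for array A, 0.0516 for array B and 0.0505 for control.

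From the scanner files, levels were taken as log2 signal minus that array's log2 75th percentile over spots other than controls, and spots of a probe were averaged without those marked as outliers. A gene was read from its probe with the highest mean. It entered a comparison when well above background (more than 50% of its unmarked spots) on at least 1 of the 2 arrays, and counted at a difference of 2-fold (log2 of 1). A dim side below the faintest well-above-background level of its array was raised to that level, which makes the difference a bound. A dim side above that level was left as it was, and the difference is then the measured one. With 1 array per condition there is no test. The script was tested on simulated data. Comparisons share arrays: control serves in 5 of 7, so they are not independent.

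The members, the 6 gene lists (112 of 113 genes on the arrays) and the 6 marker lists were chosen with earlier results of these data known. Named were all members, in each gene list the 4 genes with the largest absolute difference in triple stimuli against control, and for each member spanning 1 log2 unit and well above background on all 6 arrays the 3 genes with the highest r; further genes named singly beside counts of 5 or fewer were chosen after their values were seen. Some genes that these rules name are not reported here. Promoters are RefSeq's (GRCm38.p6), probe positions mm9, as in the files. Python 3.11.15, numpy 2.4.6, pandas 2.3.3, R 4.3.3 and limma 3.58.1 (normexp) were used.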

Additional observations from a re-analysis of the deposited data

How the results depend on the processing

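The members' differences were recomputed under 11 alternatives, of which 10 were planned and 1, leaving out members' spots in the first band of rows, was chosen after seeing the data. Of 664 member values, 642 stayed on their side of the 2-fold line, 22 crossed it (11 of them at the 1.5-fold threshold), and 0 of those called at 2-fold changed direction. Much of this was fixed in advance, so the share is no measure of robustness. Among the members, keeping flagged spots or leaving out the first band acts on Fos spots alone, and averaging probes on Fosl2 alone. The deposited value table holds the same signal, and the comparisons share arrays. The sign differed in 6 values, all of differences no larger than 0.143 in size as reported. Under normexp, whose offset of 50 compresses dim signals by construction, the count of members at 2-fold was 0 in hypoxia against control and 2 in triple stimuli against hypoxia. With no filter on dim probes it was 2 in hypoxia against control, 1 higher and 1 lower. At 1.5-fold it was 3 in hypoxia against control, 4 on array A, 1 on array B and 1 in triple stimuli with rapamycin against triple stimuli. The count of members above the sum of single differences was 1 under each alternative run.

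Over all genes in triple stimuli against control, 906 were higher and 309 lower; these were 515 and 115 under normexp, 489 and 229 when both arrays had to be well above background, 2485 and 1206 with no filter, and 1950 and 1371 at 1.5-fold. With no filter the median of all genes shifted to 0.26. Of the 7 comparisons, the total of higher and lower genes fell short by over 1.5 times in 7 under normexp and in 6 when both arrays were required, and was over 1.5 times greater in 7 with no filter and in 7 at 1.5-fold. In triple stimuli with rapamycin against triple stimuli, requiring both arrays left 58 higher and 89 lower, against 334 and 370. Dim members (Fos, Fosb, Junb) are limited by signal over background. No paired analysis was possible because each condition has 1 array, and for the same reason no replicate could be left out.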
